A study of Mus musculus with 4 samples.

Results

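The keratin genes were followed across 4 spatial transcriptome sections of the injured mouse Achilles tendon. Keratins were taken as every gene symbol made of Krt and a number alone that had at least 30 unique molecular identifiers (UMIs, each counting 1 captured RNA molecule) over the 4 sections. Of 32285 genes in the files 49 symbols fit the pattern and 41 passed the minimum, 21 of type I and 20 of type II. Krt39 with 29 UMIs lay just outside the minimum, and Krt4 with 30 and Krt8 with 32 lay just inside. Krt90, Krt12, Krt13, Krt9, Krt40 and Krt88 held 26, 19, 7, 6, 5 and 3 UMIs, and Krt76 held 0. Symbols with a letter after the number, such as Krt6a, were not members.

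Each section was a frozen longitudinal slice of the injury site from mice of 12 weeks, cut 14 days after a punch through the tendon that was reached by opening the overlying skin. Visium arrays, which capture RNA on a grid of barcoded spots, gave the UMI counts, and a spot is a small region that can hold several cells. The control sections, WT 1 and WT 2, are of genotype TrkA WT, and the other pair, F592A 1 and F592A 2, of genotype TrkA F592A with 1NMPP1 treatment. TrkA is a nerve growth factor receptor on nerve fibres, and the F592A form can be blocked by the small molecule 1NMPP1. Whether TrkA WT mice had the drug is not in the labels, so genotype and drug cannot be told apart, and each genotype pooled 4 mice, with both sexes used in the study. No label ties a section to an animal, so p-values measure the spread between sections, which may be technical. In the WT pair that spread also holds a difference of sex, read from the Xist counts given below. The comparison asks what differs around the injury when TrkA signalling is inhibited. The labels describe tendon and injured area, and the sections also carried skin.

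Keratins build the intermediate filaments of epithelial cells, and each filament unit pairs a type I with a type II protein. In mouse skin Krt5 and Krt14 are made by basal keratinocytes and Krt1 and Krt10 by the layers above. The hair shaft, its inner root sheath and its companion layer use separate sets of keratins, and Krt7, Krt8, Krt18, Krt19 and Krt20 belong mainly to simple epithelia. The genes lie in 2 clusters. All 20 type II members were on chromosome 15 with the type I gene Krt18, and the other 20 type I members were on chromosome 11.

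The 4 libraries held 30154873 to 43957617 UMIs and 24071 to 104029 keratin UMIs each. Levels below are UMIs per 1000000 UMIs of the named spots of a section (CPM), a scale into which gene length does not enter because a molecule is counted once from its 3′ end. Where 4 values stand in a row, their order is WT 1, WT 2, F592A 1, F592A 2. WT 2 stands apart in ways that touch the keratins. It had the fewest keratin UMIs, and 54 of its 65 epidermis spots lay on a detached fragment. It also held 4207 UMIs of Xist against 7 to 12 in the other sections. Xist is the RNA of the inactive X chromosome of female cells. By this RNA WT 2 alone read as female, so the groups were not balanced for sex. Keratins together stood at 2104, 798, 1860 and 2805 CPM. That total follows the amount of skin in a section, and fewer keratinocytes cannot be told apart from less keratin RNA per cell in these sums.

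Spots were therefore sorted with lists of epidermis, hair follicle and sebaceous gland genes that hold no member, so that keratin levels could be read within a kind of spot. A spot belonged to a class when the list's share of its UMIs reached 0.857%, 0.317% or 0.132%, respectively. The classes are ranges on a continuous score: 174 of 639 epidermis spots, 258 of 760 hair follicle spots and 176 of 430 sebaceous spots lay no more than 25% above their cut, and 321 of the 1872 spots passing any cut passed more than 1. Epidermis spots numbered 108, 65, 236 and 230 in WT 1, WT 2, F592A 1 and F592A 2. Hair follicle spots numbered 141, 216, 184 and 219. Sebaceous spots numbered 148, 17, 116 and 149. The classes carried genes outside the keratins that define them, such as Lor (loricrin of the cornified envelope) at 3767 to 9665 CPM in epidermis spots against 159 to 570 in hair follicle spots. Tchh (trichohyalin of the inner root sheath) was at 883 to 1549 CPM in hair follicle spots against 72.5 to 249 in epidermis spots.

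Promoters of 4 members are shown because the genes stand for the patterns described below: Krt77 and Krt2 prevail in different pieces of epidermis, Krt10 is the most abundant epidermal member and Krt71 marks the inner root sheath. Each line gives 150 bases up to 1 transcription start of the gene from RefSeq on GRCm38.p6, the first listed for it. All are on the minus strand, with matches to TATANA on either strand in capitals. The windows of Krt10 and Krt2 lie inside the spans of their genes, whose upstream ends are at 99397449 and 101818956.
Krt77, chr15:101869706-101869855: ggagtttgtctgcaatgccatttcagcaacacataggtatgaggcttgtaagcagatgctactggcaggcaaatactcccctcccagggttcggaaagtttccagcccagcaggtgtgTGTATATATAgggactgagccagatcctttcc
Krt2, chr15:101818170-101818319: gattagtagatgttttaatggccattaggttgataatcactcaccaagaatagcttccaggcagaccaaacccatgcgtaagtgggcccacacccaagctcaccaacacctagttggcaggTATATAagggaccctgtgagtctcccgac
Krt10, chr11:99389365-99389514: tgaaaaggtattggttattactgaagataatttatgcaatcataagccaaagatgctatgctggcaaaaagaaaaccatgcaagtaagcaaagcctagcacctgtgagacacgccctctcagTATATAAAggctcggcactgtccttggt
Krt71, chr15:101743098-101743247: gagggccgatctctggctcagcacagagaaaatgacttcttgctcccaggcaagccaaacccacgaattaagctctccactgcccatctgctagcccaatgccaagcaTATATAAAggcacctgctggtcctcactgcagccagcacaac
The first of these matches began 32, 29, 28 and 42 bases before the start of Krt77, Krt2, Krt10 and Krt71.

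RefSeq promoters were at hand for 28 members, with 1 start used per gene, and 250 bases before it were searched on both strands. The letters TATAAA occurred in 13 of the 28 and in 13.0% of all 27025 promoters of the same length. Of the members highest in hair follicle spots 11 of 16 held them, against 1 of 9 of those highest in epidermis spots, which was Krt10. The looser letters TATANA, which contain TATAAA, occurred in 17 of 28 members, 12 of 16 hair follicle members, 4 of 9 epidermal members and 23.4% of all promoters. CCAAT occurred in 12 of 28 members and 34.5% of all promoters. A match describes the letters in this window and is not a binding site.

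**Figure D1:**
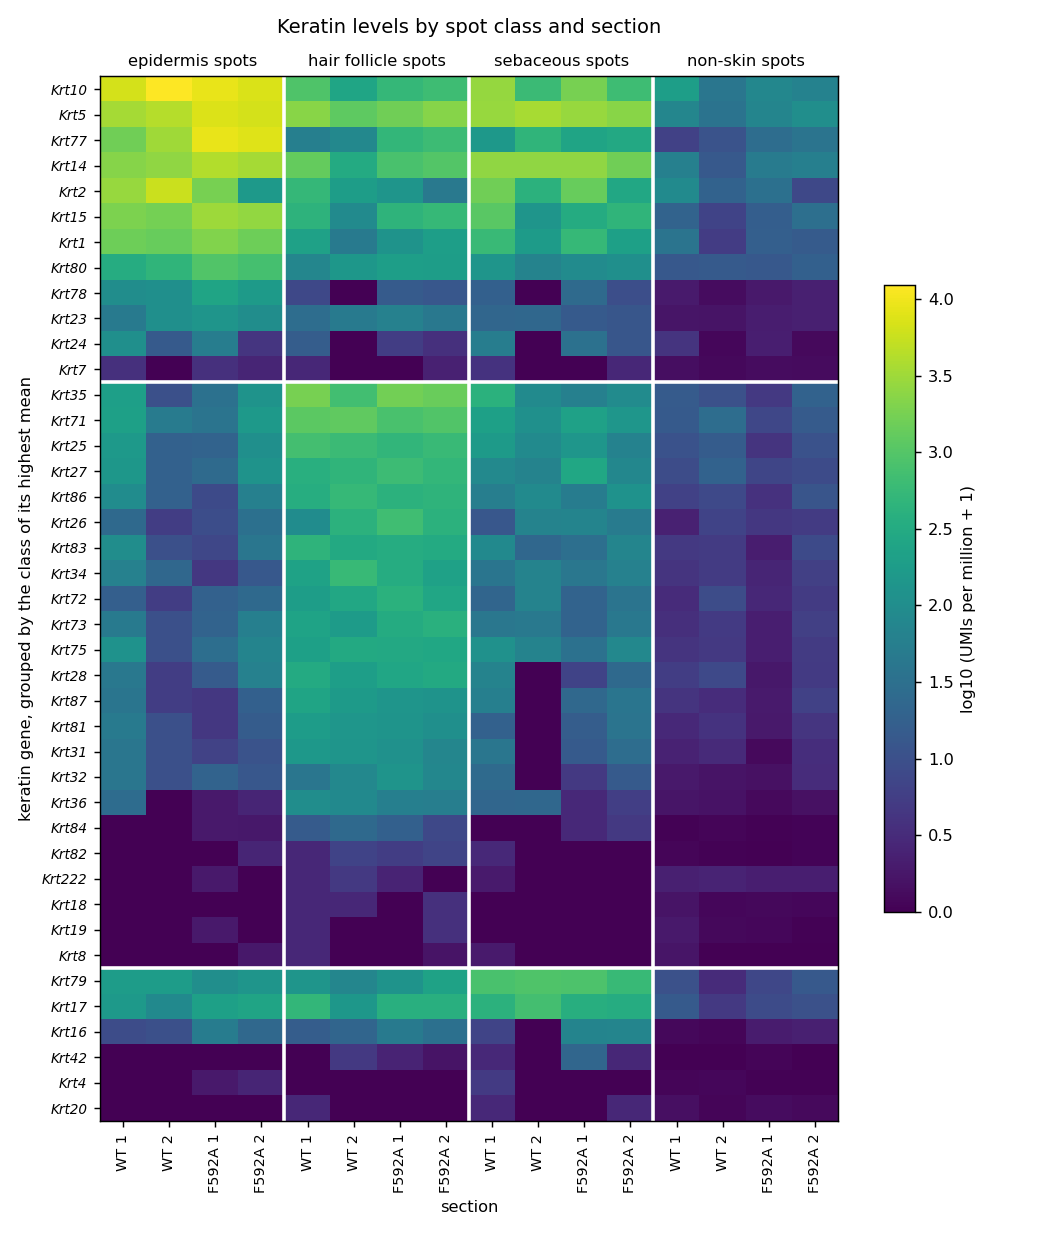
Keratin levels as log10 of CPM plus 1, with the 41 keratins as rows grouped by the class of their highest mean and the 4 sections within each class as columns. Epidermal keratins are brightest in epidermis spots and follicle keratins in hair follicle spots, while Krt77 and Krt2 differ in opposite directions between WT and F592A sections in epidermis spots.

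By mean level over the 4 sections 12 members were highest in epidermis spots, 23 in hair follicle spots and 6 in sebaceous spots, the follicle group including Krt8, Krt18, Krt19 and Krt222 at low levels. The order held in every section for 8, 17 and 1 of them. Among basal keratins of epidermis spots Krt5 stood at 3465 and 4332 CPM in WT 1 and WT 2 and at 7341 and 6731 in F592A 1 and F592A 2. Its partner Krt14 was at 2254, 2530, 4168 and 3404 in the same order. Krt15, a type I keratin of basal cells and of the follicle bulge, was at 1894, 1712, 3080 and 2693. Both F592A sections lay above both WT sections for each of these 3 genes, as they did for 28.8% of all genes tested in epidermis spots. By tissue piece, given below, the groups overlapped for Krt5.

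Among suprabasal keratins Krt10, the main type I keratin of differentiating layers, had the highest mean level of all members in epidermis spots, 8805 ± 2481 CPM (SD, n = 4). Its values were 6760, 12267, 8900 and 7294 in WT 1, WT 2, F592A 1 and F592A 2, with WT 2 the highest and the groups overlapping. Its partner Krt1 was at 1537, 1390, 2086 and 1509, also with overlap. Krt2, a type II keratin of the upper layers, was at 2873, 5861, 1788 and 161, both F592A sections lying below both WT sections. Krt77, a type II keratin close to Krt1 in sequence, was at 1574, 3214, 8908 and 7781, so that the order of the groups was the opposite of that for Krt2. Krt78 was at 101, 107, 242 and 170, and Krt80 at 344, 474, 941 and 773, both higher in each F592A section than in each WT section. By tissue piece, given below, the groups overlapped for Krt80. Of all genes tested in epidermis spots, 28.8% lay above in this way and 14.0% below. Krt23 was at 48.0, 107, 133 and 101 and Krt24 at 109, 13.4, 52.3 and 3.35, with no order by group. Krt7 completed the members highest in epidermis spots, with 0 to 2.75 CPM.

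Among hair follicle keratins Krt35, a type I keratin of the hair matrix and cortex, was the most abundant, at 1784, 713, 1636 and 1431 CPM in hair follicle spots in WT 1, WT 2, F592A 1 and F592A 2. The inner root sheath was represented by Krt71 at 1140, 1213, 819 and 955, and by its type I partners Krt25 at 734, 602, 487 and 591, Krt27 at 378, 465, 628 and 516, and Krt28 at 321, 196, 257 and 303. The groups overlapped for Krt35 and Krt28. Further root sheath keratins were Krt72 at 185, 284, 400 and 264, Krt73 at 232, 177, 327 and 391, and Krt26 at 95.6, 423, 676 and 427. The companion layer keratin Krt75 was at 213, 301, 293 and 272.

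Hair shaft keratins formed the rest of the follicle group. Krt86 was at 352, 548, 419 and 448, Krt83 at 462, 307, 336 and 312, Krt81 at 179, 138, 129 and 108, and Krt87 at 242, 168, 137 and 125. Of the type I shaft keratins Krt34 was at 227, 558, 339 and 218, Krt31 at 151, 137, 117 and 73.2, Krt36 at 100.3, 84.9, 57.0 and 55.9, and Krt32, the keratin of the hair cuticle, at 39.4, 79.4, 131 and 78.5. Krt84 and Krt82 were low, at 6.65 to 24.01 and 1.88 to 5.99. In hair follicle spots both F592A sections lay above both WT sections for 8 of 31 members tested (Krt26, Krt27, Krt73, Krt15, Krt16, Krt77, Krt78 and Krt80), against 19.3% of all genes tested there. They lay below for 7 (Krt71, Krt25, Krt31, Krt36, Krt81, Krt87 and Krt2), against 12.7%. Follicle keratins thus stood on both sides, and of them none passed the test between groups.

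Sebaceous spots had the highest mean of Krt79, a keratin of the gland and its duct, in every section, at 811, 909, 890 and 573 CPM in WT 1, WT 2, F592A 1 and F592A 2. Krt17, a keratin of appendages and of wounded epidermis, reached 425, 731, 371 and 342 there and 516, 146, 380 and 385 in hair follicle spots. Krt16, its wound-associated relative, was rare, with 512 UMIs in all. In sebaceous spots Krt16 stood at 5.89, 0, 68.9 and 72.8 CPM and in epidermis spots at 8.003, 8.94, 51.4 and 23.4. Both F592A sections lay above both WT sections in each, as they did for 28.8% of all genes tested in epidermis spots. No such share was computed for sebaceous spots. The WT 2 value of 0 rests on 17 sebaceous spots. Krt42, Krt20 and Krt4 were also highest here by their mean, at no more than 21.0 CPM in any section.

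The simple epithelial keratins were rare. Krt18 and Krt20 had no UMI among the 2883600 UMIs of epidermis spots, a count of 0 that allows up to 1.04 CPM. Krt7, Krt8, Krt18, Krt19 and Krt20 had 69, 32, 53, 61 and 59 UMIs over all spots, of which 55.1%, 71.9%, 71.7%, 68.9% and 62.7% lay in non-skin spots. Non-skin spots held 72.7% of all UMIs, close to the shares of Krt8, Krt18 and Krt19 and above those of Krt20 and Krt7. Of the 32 UMIs of Krt8 27 came from WT 1. By section from WT 1 to F592A 2 there were 26, 7, 11 and 9 UMIs of Krt18, 35, 8, 11 and 7 of Krt19, 26, 3, 15 and 15 of Krt20 and 22, 8, 21 and 18 of Krt7. Krt222, a type I keratin gene apart from the skin set, had 190 UMIs, 77.4% of them in non-skin spots, at 1.31, 1.59, 1.18 and 1.19 CPM there.

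Epidermis spots were compared with hair follicle spots of the same section to show how the family divides between them. Since both classes come from other genes of the same spots, the test describes where keratins lie with those genes. Of 31 members tested 29 passed the threshold, 11 of them higher in epidermis spots and 18 higher in hair follicle spots (edgeR quasi-likelihood test with the section as a block, Benjamini-Hochberg adjusted p under 0.05). Of all 9994 genes tested 17.9% passed, 10.4% as higher and 7.46% as lower in epidermis spots. Krt77 differed most, with a log2 fold change of 4.63 ± 0.31 (SE, n = 4 sections, adjusted p = 4.86e-07, edgeR). It was followed on the epidermal side by Krt78 at 4.33 ± 0.31, Krt10 at 4.18 ± 0.38, Krt1 at 3.80 ± 0.31 and Krt2 at 3.46 ± 0.41. Krt15 with 3.01 ± 0.31, Krt24 with 2.98 ± 0.46, Krt80 with 2.28 ± 0.21, Krt14 with 2.17 ± 0.30, Krt5 with 1.79 ± 0.25 and Krt23 with 1.31 ± 0.20 made up the 11. The basal genes Krt5 and Krt14 thus differed less than the suprabasal Krt1 and Krt10, in a follicle whose outer root sheath also makes Krt5 and Krt14.

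On the follicle side Krt26 was lower in epidermis spots by a log2 fold change of -4.24 ± 0.51, Krt35 by -4.03 ± 0.42, Krt72 by -3.83 ± 0.30 and Krt34 by -3.78 ± 0.49. Inner root sheath genes were near 3 on the same scale, with Krt71 at -3.18 ± 0.36, Krt25 at -3.05 ± 0.39 and Krt27 at -2.65 ± 0.46, and the shaft gene Krt86 was at -3.29 ± 0.47. The smallest called differences were Krt75 at -2.12 ± 0.40, Krt32 at -1.94 ± 0.41 and Krt17 at -0.78 ± 0.21 (adjusted p = 0.0202, edgeR). Krt16 at -0.11 ± 0.29 and Krt79 at 0.32 ± 0.28 did not pass (adjusted p = 0.941 and 0.489, edgeR). Across alternatives 26 to 30 members were called. Krt17 and Krt32 were lost without either F592A section and at a lower class cut, and Krt24 without WT 1 or F592A 2.

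**Figure D2:**
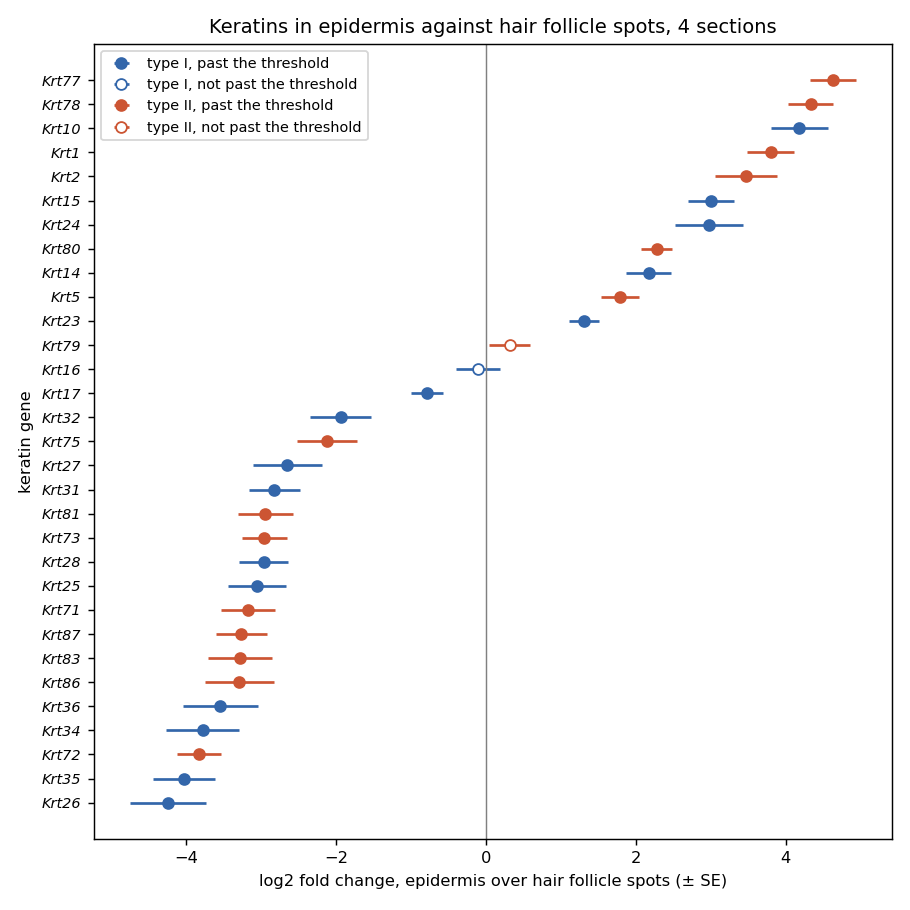
Log2 fold change of 31 keratins in epidermis over hair follicle spots, with its SE, from 4 sections. Blue points are type I and red points type II keratins, and open points did not pass the threshold; both types occur on both sides, from Krt77 at 4.63 to Krt26 at -4.24.

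Of 30 keratins compared across skin spots, 23 were closest to a keratin of the other type and 7 to one of their own (Krt28, Krt35, Krt75, Krt80, Krt81, Krt83 and Krt87). A pair closest to each other, such as Krt1 and Krt10, counts for both members. The share that the mix of types alone would give was not computed. Across the skin spots of a section, the correlation of log values was highest for Krt1 with Krt10, 0.657 as the mean of 4 sections (lowest 0.640, highest 0.672). Krt5 was closest to Krt14 at 0.595, Krt71 to Krt25 at 0.505, Krt34 to Krt86 at 0.495 and Krt79 to Krt17 at 0.273. Krt77 was closest to Krt15 at 0.622 (lowest 0.404, highest 0.698), and Krt24 to Krt2 at 0.302. Within a type, Krt28 and Krt35 were closest to each other at 0.486, Krt80 to Krt77 at 0.439 and Krt83 and Krt87 to each other at 0.423. These are descriptions over 397, 298, 536 and 598 spots that share libraries, depth and the amount of epidermis per spot, among the 30 keratins with at least 500 UMIs.

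Within epidermis spots Krt77 and Krt2 separated by place. The 2 genes are neighbours on chromosome 15, with Krt1 between them and 39.8 kb from the end of Krt2 to the start of Krt77. Tissue pieces, defined here as connected sets of at least 40 tissue spots, gave 1 epidermis-bearing piece in WT 1 and 2 in each other section. In F592A 1 the larger piece had 215 epidermis spots with Krt77 at 10129 and Krt2 at 55.4 CPM. The other piece had 21 epidermis spots with Krt77 at 179 and Krt2 at 14178. In F592A 2 the larger piece had 218 epidermis spots with Krt77 at 8136 and Krt2 at 16.7, and the other had 12 with 295 and 3190. Each F592A section therefore held both states, and most of its epidermis spots lay in the piece rich in Krt77.

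WT 1 had both genes within 1 connected piece, with Krt77 at 1574 and Krt2 at 2873 CPM over its 108 epidermis spots. In WT 2 the detached fragment of 54 epidermis spots had Krt77 at 3696 and Krt2 at 6216 together, and the main piece of 11 spots had 195 and 3637. As a share of the UMIs of both genes, Krt77 made up 99.8% (95% Wilson interval 99.7 to 99.9) in the larger and 8.47% (5.28 to 13.3) in the smaller piece of F592A 2. The larger piece of F592A 1 held 9685 UMIs of Krt77 and 53 of Krt2, and the smaller 24 and 1896, which gave intervals of 99.3 to 99.6% and 0.841 to 1.85%. They were 35.4% (33.1 to 37.7) in WT 1, and 37.3% (35.2 to 39.5) and 5.08% (2.35 to 10.7) in the fragment and main piece of WT 2. The intervals cover counting error only. Krt10 was present in every one of these pieces, from 3832 CPM in the main piece of WT 2 to 15397 in the smaller piece of F592A 1. Krt80 was at 1021 and 798 in the larger pieces of F592A 1 and F592A 2 and at 374 and 240 in the smaller. It was at 344 in WT 1, and at 498 and 325 in the fragment and main piece of WT 2. In the same order Krt5 was at 7785 and 6873, at 4165 and 3743, at 3465, and at 4489 and 3345.

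**Figure D3:**
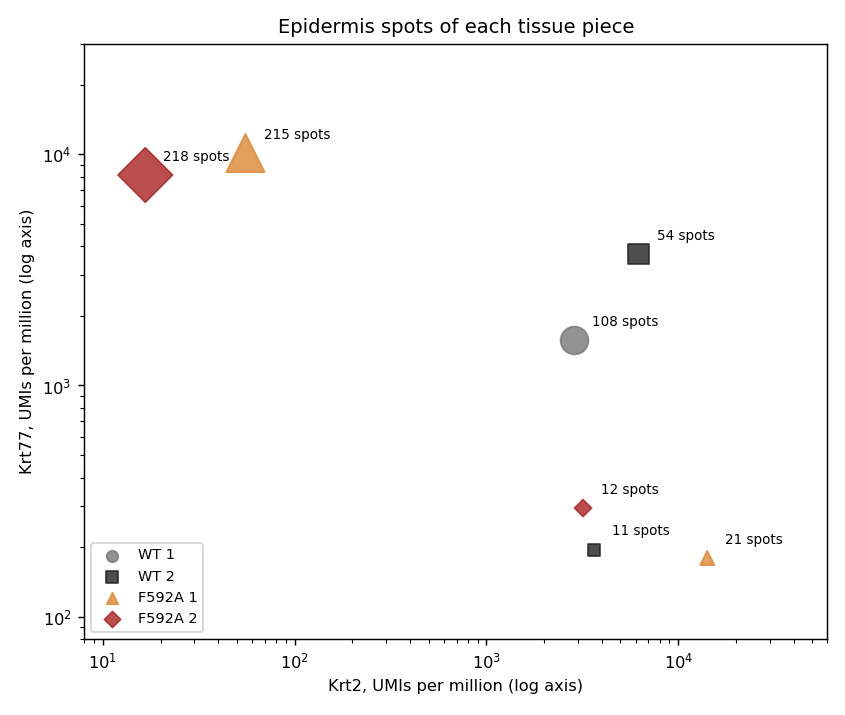
Krt77 against Krt2 in CPM of the epidermis spots of each tissue piece, both axes logarithmic, with point size growing with the number of spots. The larger F592A pieces sit at the upper left with Krt2 at 55.4 and 16.7, 3 small pieces sit at the lower right with Krt77 at 179 to 295, and WT 1 and the WT 2 fragment lie between.

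The same separation appeared spot by spot. Of epidermis spots with at least 5 UMIs of the pair, Krt77 supplied 90% or more in 180 of 199 in F592A 1 and 178 of 188 in F592A 2, and 10% or less in 11 and 4. In WT 1 Krt77 supplied 90% or more in 16 of 83 such spots, 10% or less in 60, and an intermediate share in 7. WT 2 was unlike the other 3 sections: 51 of its 58 spots had an intermediate share, with a median of 32.7%, and none had 90% or more. The 2 keratins were thus mostly exclusive of each other in 3 sections and mixed within single spots in WT 2.

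**Figure D4:**
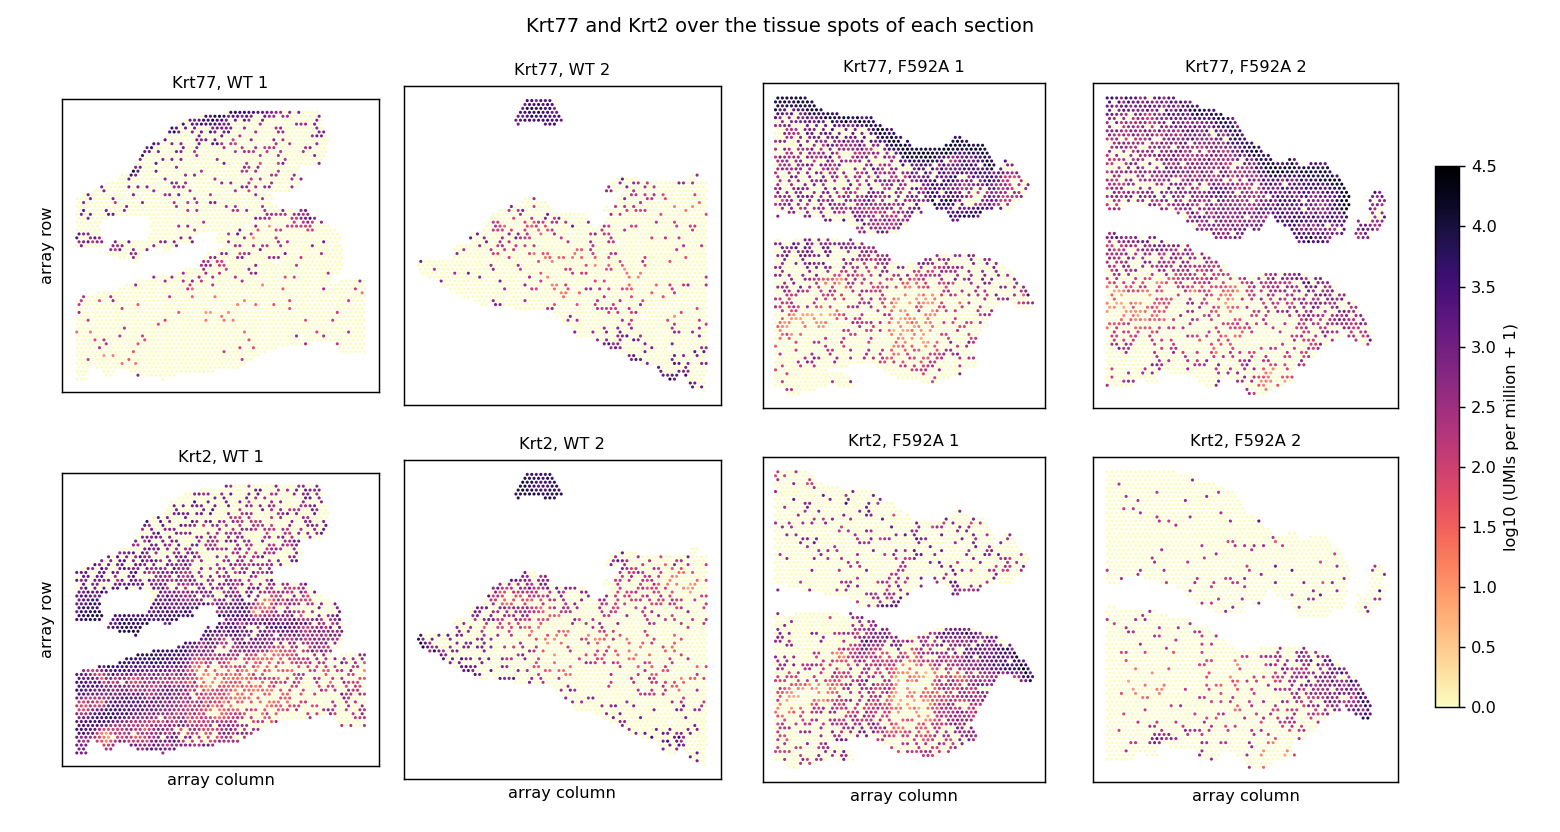
Array position of every kept tissue spot, coloured by log10 of CPM plus 1, for Krt77 (upper row) and Krt2 (lower row) in the 4 sections. Krt77 is darkest along the upper piece of both F592A sections where Krt2 is sparse, Krt2 is darkest in the lower piece and over much of WT 1, and both are dark on the detached fragment of WT 2.

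Genes most like Krt77 were ranked by the mean over sections of their correlation with it across epidermis spots, among 1817 genes. The first 5 were Sbsn (suprabasin) at 0.568, Krt15 at 0.551, Lor at 0.537, Krtdap at 0.531 and Krt5 at 0.469. Krt2 ranked 1810th at -0.324, ranging from -0.679 in WT 1 to 0.320 in WT 2. These correlations share the libraries and the amount of epidermis per spot. Sbsn, Lor and Krtdap are in the list that defined epidermis spots, so their ranks are tied to that choice.

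The groups were compared first over whole sections. There Krt77 stood at 29.1 and 39.2 CPM in WT 1 and WT 2 and at 279 and 373 in F592A 1 and F592A 2. It was the only member of 38 tested to pass the threshold, with a log2 fold change of 3.22 ± 0.22 (SE, n = 2 against 2 sections, adjusted p = 0.0333, edgeR), and 0.0795% of all 16347 genes passed. The adjusted p was 0.273 and 0.311 without F592A 1 and F592A 2, and 0.109 when the library size was taken from the epidermis list, with log2 fold changes of 3.39, 3.03 and 1.73. That list itself was at 901 and 429 CPM in whole WT sections and at 1351 and 1825 in the F592A sections, so the sections with more Krt77 also had more epidermal RNA. Its part in the difference was not tested. Over all kept spots Krt77 was at 2222 and 1781 CPM in the Krt77-rich pieces of F592A 1 and F592A 2. Their other epidermis-bearing pieces were at 22.8 and 38.9, and a further F592A 2 piece of 44 spots was at 613. The single piece of WT 1 was at 29.1, the WT 2 main piece at 15.5 and its fragment at 3692. The part of the pieces in the difference was not tested either.

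No other member passed in whole sections. Krt16 was at 1.10, 0.763, 4.55 and 6.52 CPM in WT 1, WT 2, F592A 1 and F592A 2, a log2 fold change of 2.53 ± 0.29 (SE, adjusted p = 0.112, edgeR). Krt78 at 1.87 ± 0.34, Krt80 at 1.13 ± 0.17 and Krt23 at 1.15 ± 0.21 also missed the threshold (adjusted p = 0.196, 0.161 and 0.196, edgeR). DESeq2 called Krt16, Krt78, Krt80 and Krt23 with Krt77, among 420 of 16566 genes. Krt15 with 1.40 ± 0.63, Krt5 with 1.14 ± 0.47, Krt14 with 0.97 ± 0.65, Krt1 with 0.51 ± 0.69 and Krt10 with 0.25 ± 0.52 were positive, and Krt2 was negative with -1.17 ± 0.74. The follicle genes Krt35 at 0.05 ± 0.64 and Krt71 at -0.39 ± 0.43 lay near 0. The median over the 38 members was 0.22, against 0.00 over all genes tested, and 24 were positive. Both F592A sections lay above both WT sections for 8 members and below them for 2 (Krt222 and Krt19), and over all genes tested the shares were 23.4% and 20.3%. The share of members above, 8 of 38, was near that background. With the library size from the epidermis list the median of all genes shifted to -1.38 and that of the members to -1.14, and Krt80, Krt5, Krt14, Krt10, Krt1 and Krt35 turned negative.

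Within epidermis spots 0 of 29 members passed, as did 0 of all 9175 genes tested (edgeR, 0% called). At an unadjusted p under 0.05 there were 9 members and 876 genes. DESeq2 called Krt77 alone among 11 members to which it gave an adjusted p, and 17 of 1477 genes. The log2 fold change of Krt77 was 1.69 ± 0.34 (SE, n = 2 against 2, adjusted p = 0.257, edgeR), and that of Krt2 was -2.27 ± 0.83 (adjusted p = 0.476). Krt16 at 2.01 ± 0.71, Krt80 at 0.96 ± 0.29, Krt78 at 0.87 ± 0.32, Krt5 at 0.73 ± 0.25, Krt15 at 0.56 ± 0.25 and Krt14 at 0.54 ± 0.25 were positive and did not pass. Krt1 at 0.18 ± 0.27 and Krt10 at -0.35 ± 0.31 were smaller. Both F592A sections lay above both WT sections for 9 of 29 members, against 28.8% of all genes, and below for Krt2, Krt34 and Krt79, against 14.0%. The epidermis list was at 14251 and 23135 CPM in epidermis spots in WT 1 and WT 2 and at 33390 and 27476 in F592A 1 and F592A 2, and tendon genes at 35179 and 26416 against 14768 and 16937. A WT epidermis spot thus held less epidermal RNA for its depth, and its part in these values was not tested. Calls were unstable, with 5 members and 172 of 16635 genes called when no filter on low counts was used.

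In hair follicle spots Krt77 passed alone among 31 members, and it was also the only gene of all 10323 tested, 0.00969%, to do so. It was at 56.3 and 79.4 CPM in WT 1 and WT 2 and at 505 and 643 in F592A 1 and F592A 2, a log2 fold change of 3.05 ± 0.37 (SE, adjusted p = 0.0417, edgeR). Krt2 was at 519, 187, 136 and 44.6 in these spots. At a class cut of 40% the Krt77 difference was 1.98 and no longer passed (adjusted p = 0.265, edgeR). The epidermis list was at 2397, 1631, 2890 and 3028 CPM in these spots, and its part in the Krt77 difference was not tested. Hair follicle spots of the Krt77-rich pieces of F592A 1 and F592A 2 had Krt77 at 816 and 1168 CPM. Those of the other pieces had 175 and 174, and the part of the pieces was not tested. The follicle's own Krt35 and Krt71 had log2 fold changes of 0.26 ± 0.45 and -0.45 ± 0.36. Sebaceous spots had no such test, since WT 2 had 17 of them. Krt77 there stood at 149, 465, 239 and 290, with the groups overlapping.

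In non-skin spots 0 of 34 members passed, and 0.0516% of 15499 genes did (edgeR). At an unadjusted p under 0.05 there were 3 of 34 members and 2551 of 15499 genes. DESeq2 called Krt16 and Krt77, among 434 of 15976 genes. Krt77 was at 5.22, 9.96, 27.95 and 36.3 CPM, a log2 fold change of 2.08 ± 0.32 (adjusted p = 0.132, edgeR), and Krt16 at 0.213, 0.120, 1.07 and 1.29, one of 2.74 ± 0.43 (adjusted p = 0.133). With the replicate number as a block Krt77 passed (adjusted p = 0.0457, edgeR) and Krt2 was called as lower, among 53 of 15499 genes.

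Skin keratins were detected far from skin, and their levels fell with distance. All members together were at 15326 to 24785 CPM in spots of a skin class, at 3298 to 7031 at 1 step on the array, and at 249 to 419 at 10 steps or more. Krt10 fell from 2586 to 4854 in skin spots to 38.5 to 152 at 10 steps or more, and Krt35 from 484 to 974 to 2.64 to 11.8. Krt222 had no such fall, with 0 to 2.47 CPM in skin spots and 0.97 to 1.99 at 10 steps or more. Among non-skin spots it was higher in those above the median share of muscle genes than in those below in all 4 sections, at 3.67 against 0.81, 2.51 against 1.20, 1.69 against 1.08 and 2.55 against 0.82 CPM. It was also higher above than below the median share of endothelial genes in all 4 sections, at 1.40 against 1.21, 1.89 against 1.34, 1.43 against 0.90 and 1.298 against 1.10. Above the median share of tendon genes Krt222 was lower in all 4, at 0.81 against 3.11, 1.32 against 2.06, 1.18 against 1.19 and 0.91 against 1.60. For Merkel cell genes its order varied, at 0.98 against 2.26, 1.38 against 2.15, 1.21 against 1.10 and 0.90 against 2.15. The sum of Krt7, Krt8, Krt18, Krt19 and Krt20 was also higher on the muscle side in all 4, at 3.84 against 2.98, 1.19 against 0.63, 1.19 against 1.15 and 0.93 against 0.76. For the other lists the order of the sum varied. It was at 4.08 against 2.18, 0.95 against 0.67, 1.43 against 0.84 and 0.76 against 0.82 for endothelial genes. For tendon genes it was at 2.78 against 4.39, 0.44 against 1.41, 1.04 against 1.36 and 0.83 against 0.74. For Merkel cell genes it was at 3.10 against 3.22, 0.77 against 0.86, 1.17 against 1.10 and 0.90 against 0.43. These splits were chosen after the values were seen, and those of Krt222 rest on 8 to 32 UMIs a side. The muscle split of the sum rests on 22, 9, 7 and 4 UMIs on the muscle side and 81, 11, 32 and 12 on the other.

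**Figure D5:**
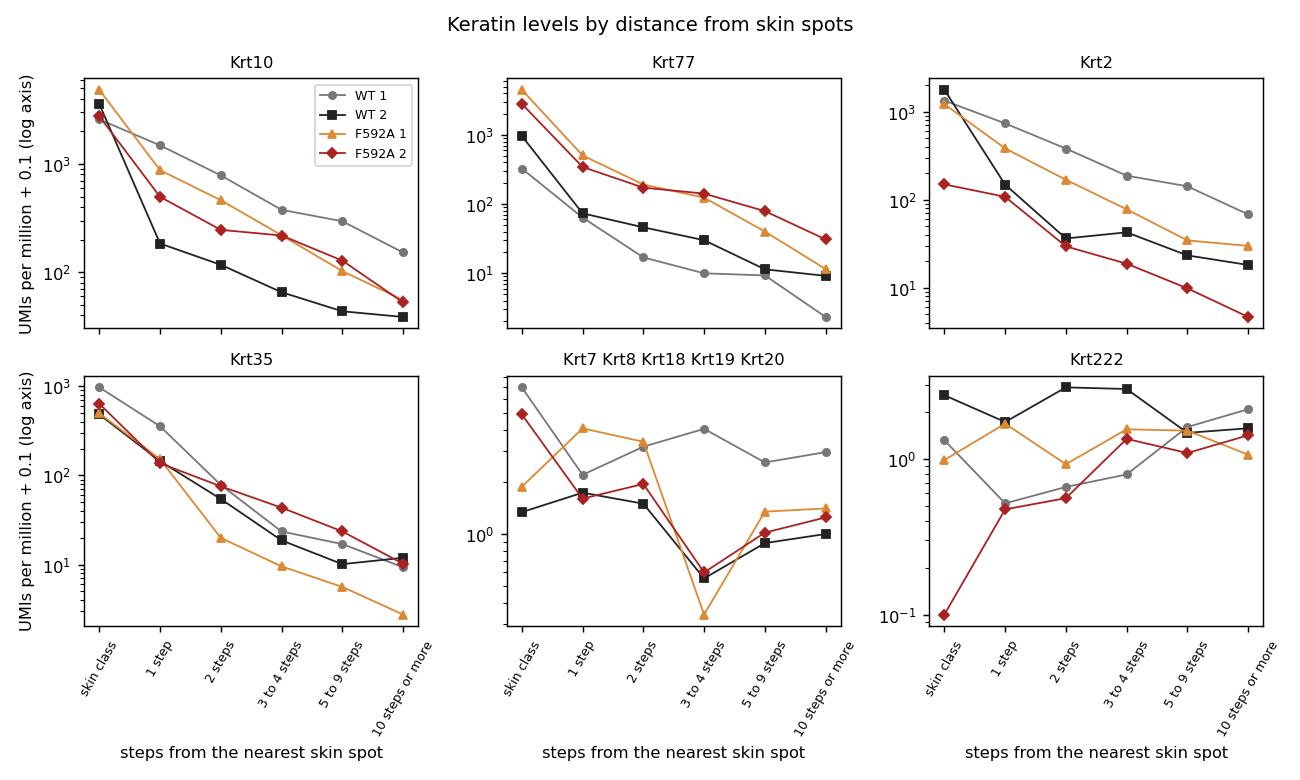
CPM plus 0.1 on a log axis for 5 keratins and the sum of Krt7, Krt8, Krt18, Krt19 and Krt20, by steps on the array from the nearest spot of a skin class, 1 line for each section. Krt10, Krt77, Krt2 and Krt35 fall by more than 10 times from skin spots to 10 steps or more in every section, and Krt222 shows no fall.

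The make-up of the family was compared as ratios and shares of keratin UMIs within a class. In epidermis spots the ratio of type II to type I keratin UMIs was 0.898 and 0.932 in the WT sections and 1.29 and 1.24 in the F592A sections (mean ± SD 0.915 ± 0.0242 and 1.27 ± 0.0317, n = 2 each). Krt77 made up 14.6% and 20.5% of type II keratin UMIs there in WT and 41.4% and 43.9% in F592A sections (17.6 ± 4.15% and 42.7 ± 1.83%, n = 2 each). Krt2 went the other way, with 26.7%, 37.4%, 8.30% and 0.907%. In hair follicle spots the Krt77 share was 0.891%, 1.63%, 9.03% and 10.1%, and the ratio of the types was 0.892, 1.18, 0.842 and 1.01 with the groups overlapping. The epidermis list was at 2397, 1631, 2890 and 3028 CPM in hair follicle spots, and its part in that share was not tested. The exact two-sided permutation p was 0.33 for the epidermal ratio and for both Krt77 shares, the smallest that 2 sections against 2 can give. Within the pieces of the F592A sections low in Krt77, the share in epidermis spots was 0.764% and 3.02%. The main piece of WT 2 lay between them at 1.73%. The pieces rich in Krt77 had 47.6% in F592A 1 and 45.0% in F592A 2. The WT 2 fragment had 22.6%, and the single piece of WT 1 had 14.6%. For the type II to type I ratio in epidermis spots the groups overlapped by piece. This ratio was 1.671 in the main piece of WT 2 (11 spots) and 0.889 in its fragment. F592A 1 had 1.303 in its larger and 1.196 in its smaller piece. F592A 2 had 1.251 in its larger and 0.989 in its smaller piece (12 spots). Which piece is which part of the limb is not given in the labels, and skin site and group cannot be told apart.

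Epidermis spots were 3.55% and 3.21% of kept spots in the WT and 8.33% and 8.37% in the F592A sections (exact permutation p = 0.33). Hair follicle spots were 4.63%, 10.7%, 6.49% and 7.97% and sebaceous spots 4.86%, 0.840%, 4.09% and 5.42%, with exact permutation p of 1.0 and 0.6667. The groups overlapped in both.

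Genes that work with keratins were followed as lists. Hemidesmosomes and desmosomes anchor keratin filaments at the cell surface. In whole sections 0 of 10 hemidesmosome and basal genes passed (edgeR), with 9 positive and a median log2 fold change of 0.32, led by Col17a1 at 1.39 ± 0.33 and Lamb3 at 1.13 ± 0.33. Of 11 desmosome genes 0 passed and all were positive (median 0.56), led by Dsg1a at 0.91 ± 0.28, Pkp1 at 0.83 ± 0.38 and Dsp at 0.88 ± 0.47. Of 12 keratinocyte transcription factors 0 passed and 11 were positive (median 0.54), led by Grhl3 at 1.17 ± 0.29, Gata3 at 0.95 ± 0.29 and Klf4 at 0.33 ± 0.14. Of 11 wound-activated keratinocyte genes 0 passed (median 0.56), with Serpinb2 at 1.74 ± 0.33, Epgn at 1.85 ± 0.35 and Hbegf at -0.61 ± 0.20. These medians were positive in whole sections, where the epidermis list was also higher in F592A sections and the median of all genes was 0.00. Within epidermis spots 3 of 7 wound-activated genes were positive (median -0.37) and 0 passed. The basal, desmosome and transcription factor lists had medians of 0.41, 0.17 and 0.27 there, with 0 genes passing, against -0.01 for all genes.

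Keratins outside the symbol rule and the hair's matrix proteins gave the follicle counterpart. Krt33a at 0.36 ± 0.35, Krt6a at 0.56 ± 0.63 and Krt33b at -0.19 ± 0.50 did not pass in whole sections. In epidermis spots all 3 were negative (median -0.73) and none passed. Of 45 keratin-associated proteins, which embed the keratins of the hair shaft, 0 passed and 10 were positive (median -0.27), led by Krtap6-5 at -0.84 ± 0.30, Krtap24-1 at 1.04 ± 0.49 and Krtap1-3 at -1.21 ± 0.58. Between epidermis and hair follicle spots 8 of 10 hemidesmosome and basal genes and 7 of 10 desmosome genes were higher in epidermis spots (edgeR), against 10.4% of all genes. In each list 1 gene was lower, Cdh3 (P-cadherin) at -1.45 ± 0.20 and Dsc2 (a desmocollin) at -2.78 ± 0.40, against 7.46% of all genes. Krt33a at -3.40 ± 0.39, Krt33b at -2.48 ± 0.35 and Krt6a at -1.51 ± 0.28 were lower. Dsg1a, Dsg1b and Dsc1 are in the list that defined epidermis spots. Gata3, Ovol1, Cdh3 and the keratin-associated proteins are in the one for hair follicle spots. The split of all these genes is tied to that choice, and the counts above include those that were tested. Of the class lists, 1 of 33 epidermis genes passed in whole sections (Lce1m, 2.30 ± 0.19), and 0 of 48 hair follicle and 0 of 12 sebaceous genes.

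Markers of other cells that skin or the injury site can hold were read in the same fit. Chga, 1 of 6 Merkel cell genes tested, was lower in F592A sections at -1.86 ± 0.16, and Myh7, 1 of 8 muscle genes, at -2.43 ± 0.12 (adjusted p = 0.0491 and 0.0126, edgeR). None passed among 3 sweat gland, 6 endothelial, 6 tendon, 5 adipocyte, 6 macrophage and 5 melanocyte and Langerhans genes. The melanocyte and Langerhans list was at 27.0, 9.7, 4.3 and 12.5 CPM in WT 1, WT 2, F592A 1 and F592A 2, and the Merkel list at 46.0, 58.8, 48.1 and 46.1.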

How the data were processed

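The authors deposited UMI counts per gene and spot for 4 Visium sections. Space Ranger 1.3.0 made the counts, per the file headers, with reads on mm10 and later work in Seurat 3 per the submitters' processing notes; no normalization was applied to the deposited counts. The members, the 17 gene lists, the classes and the tests were chosen with earlier results of these data known.

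Tissue spots with at least 500 UMIs were kept, all but 3 or 4 a section. A class cut was 20% of the 99.5th percentile of the list's share over all kept spots, with at least 3 UMIs of the list; spots at 25% of a cut or more were border spots and the rest non-skin. Calml5 was not among the symbols. Slides share 1 set of spot barcodes, and 727 of 4386 occurred in all 4 sections.

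UMIs were summed per section and class and tested with edgeR 4.0.16 (quasi-likelihood, TMM, filterByExpr, R 4.3.3) with Benjamini-Hochberg adjustment over all genes tested and a threshold of 0.05; a class was fitted where every section had at least 20 of its spots. The SE was taken from the fold change and its F statistic. Single values used exact permutation tests (scipy 1.17.1, Python 3.11.15, numpy 2.4.6, pandas 2.3.3; figures with matplotlib 3.10.9). The fits were tested on simulated data.

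Results were recomputed with DESeq2 1.42.0, with RLE in place of TMM, with every gene kept, with each section left out in turn, with the replicate number as a block, with class cuts of 10% and 40%, with a library size from the epidermis list, all deposited spots and non-skin spots at least 5 steps from skin. Shorter class lists and crossed replicate numbers were added after seeing the data, as were the tissue pieces. Named were all members, with values by section for those called in a fit and a set of basal, suprabasal, wound, follicle and simple keratins, the 5 genes most like Krt77 and up to 3 genes per list by smallest p, of which 1 is not reported here. Promoters came from RefSeq (GRCm38.p6). Reads can be split between near-identical keratins such as Krt81, Krt83, Krt86 and Krt87, and their separate values are uncertain.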

Additional observations from a re-analysis of the deposited data

How the results depend on the processing

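Counts of called keratins within a comparison of the groups depended on the processing, while 26 to 30 keratins were called between epidermis and hair follicle spots under the alternatives that could be fitted. With 2 sections a group, leaving 1 out assumes that the lone section varies like the other group.

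In whole sections, where 1 keratin was called, DESeq2 and the fit with no filter on low counts each called 5, and leaving out a section gave 0 to 11. In epidermis spots, where 0 were called, DESeq2 called 1, no filter 5, the library size from the epidermis list 2, and leaving out a section 2 to 20. In hair follicle spots, where 1 was called, no filter called 2, the replicate block 2, the class cut of 40% 0, and leaving out a section 1 to 11. In non-skin spots, where 0 were called, DESeq2 called 2, no filter 3, the replicate block 2, and leaving out a section 0 to 6.

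With the replicate block the keratin calls in whole sections and epidermis spots stayed at 1 and 0. Over all genes they were 7 of 16347 and 0 of 9175. Replicate numbers did not pair the sections (correlation of deviations -0.135). With crossed numbers as a block 5 keratins and 189 genes were called in whole sections.

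With the library size from the epidermis list the sign turned for Krt80 (-0.26), Krt5 (-0.065), Krt14 (-0.092), Krt10 (-0.85), Krt1 (-0.50) and Krt35 (-1.14) in whole sections and for Krt14 (-0.11), Krt15 (-0.12) and Krt1 (-0.52) in epidermis spots, as that scaling divides by epidermal RNA.

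Leaving out 1 section turned the sign of some log2 fold changes. In whole sections they ran from -0.37 to 1.39 for Krt10, -0.25 to 2.23 for Krt1, -0.82 to 1.13 for Krt35 and -1.30 to 0.17 for Krt71. In epidermis spots they ran from -0.71 to 0.15 for Krt10 and -0.068 to 0.43 for Krt1, and in hair follicle spots from -0.24 to 1.04 for Krt35. The difference in spot share, F592A minus WT in percentage points, ran from -3.44 to 2.60 for hair follicle and -0.106 to 3.92 for sebaceous spots, and that in the type II to type I ratio of hair follicle spots from -0.254 to 0.0320. At the 40% cut the hair follicle share differed by 0.00695. The causes were not tested. At that cut WT 1 kept 15 epidermis spots, so epidermis spots had no fit. Sebaceous spots had 1 only at the 10% cut, where 0 of 30 keratins and 0 of 11117 genes passed (edgeR). At an unadjusted p under 0.05 there were 9 keratins and 553 genes.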
